A study of Mus musculus with 2 samples.

Results

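The 10 genes described here are early response genes, which cells transcribe quickly after a stimulus from factors that are already present. They were taken by symbol (Fos, Fosb, Jun, Junb, Jund, Atf3, Egr1, Ier2, Klf2 and Dusp1), and all 10 were found among the 32285 genes of the deposited matrices, of which 24003 had at least 1 unique molecular identifier (UMI, 1 captured RNA molecule) in the cells kept. Single-cell RNA was measured in the hippocampus of 60TM mice, which carry a transgene labelled GFAP-hGFAP on the C57BL6/J background and are a model of Alexander disease, and of wild-type (WT) C57BL6/J mice without it, all 7 weeks old. Every animal was perfused with ice-cold buffer and its hippocampus digested with papain at a warm temperature, and the cells were captured with the 10x Chromium 3' kit. Each genotype has 1 library, pooled from 3 mice with no map from cells to mice, so there are no replicates and no test, and every interval is a 95% interval of counting error only.

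Fos, Fosb, Jun, Junb and Jund encode subunits of AP-1, a pair of leucine zipper proteins that binds DNA, and Atf3 belongs to a related zipper family whose members pair with Jun proteins. Egr1 and Klf2 are zinc finger transcription factors, Ier2 is a small nuclear protein induced along with Fos, and Dusp1 is a phosphatase that switches off the MAP kinases which act upstream of these genes. In brain tissue the group is known as a marker of neuronal activity, of glial activation and, in dissociated cells, of enzymatic digestion at warm temperature. Setting the genes side by side across cell classes asks whether all classes of the 60TM library differ from WT alike or whether some stand apart. Handling of the libraries and genotype cannot be told apart as causes, since each library is 1 preparation of 1 genotype.

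Start regions of 4 of the genes are shown because they carry the motif that most of the 10 share. They run from 250 bases before to 50 after the RefSeq start (GRCm38.p6), 5′ to 3′ on the gene's strand, with TGACG or its reverse complement CGTCA, the core of the element bound by CREB and ATF factors, in capitals. The regions lie at chr12:85473640-85473939 on the plus strand for Fos, and on the minus strand at chr8:84978699-84978998 for Junb, chr1:191183284-191183583 for Atf3 and chr17:26508423-26508722 for Dusp1.
Fos: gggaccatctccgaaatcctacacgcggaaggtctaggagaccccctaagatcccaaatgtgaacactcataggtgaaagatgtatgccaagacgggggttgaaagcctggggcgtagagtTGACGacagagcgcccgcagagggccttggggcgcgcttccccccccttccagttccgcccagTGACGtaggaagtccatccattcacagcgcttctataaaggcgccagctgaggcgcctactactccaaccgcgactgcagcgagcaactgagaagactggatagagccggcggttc
Junb: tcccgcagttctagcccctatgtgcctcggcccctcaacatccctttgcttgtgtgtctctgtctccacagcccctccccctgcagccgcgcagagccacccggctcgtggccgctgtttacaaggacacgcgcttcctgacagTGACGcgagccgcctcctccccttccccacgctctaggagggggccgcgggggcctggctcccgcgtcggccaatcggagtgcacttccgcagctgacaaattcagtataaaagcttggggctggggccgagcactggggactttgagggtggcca
Atf3: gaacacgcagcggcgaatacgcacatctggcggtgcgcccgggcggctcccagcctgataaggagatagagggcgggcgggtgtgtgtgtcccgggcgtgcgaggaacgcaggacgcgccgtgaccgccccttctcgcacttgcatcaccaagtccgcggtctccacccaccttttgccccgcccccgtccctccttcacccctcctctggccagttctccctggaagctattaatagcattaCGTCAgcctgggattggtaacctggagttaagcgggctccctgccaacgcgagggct
Dusp1: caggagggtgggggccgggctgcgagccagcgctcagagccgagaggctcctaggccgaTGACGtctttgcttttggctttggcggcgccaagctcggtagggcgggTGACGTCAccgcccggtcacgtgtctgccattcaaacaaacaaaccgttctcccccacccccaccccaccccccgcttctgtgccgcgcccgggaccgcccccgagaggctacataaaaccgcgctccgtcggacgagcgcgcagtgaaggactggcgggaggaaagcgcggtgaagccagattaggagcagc
Start regions of 8 of the 10 genes, all but Egr1 and Ier2, were searched, and 6 held the core on either strand, with 9 matches in all, against 20.8% of 32851 RefSeq start regions of the same length. The Jund region, chr8:70697489-70697788 on the plus strand, ends before the GENCODE M21 model of Jund begins at 70698949. It thus does not cover the start of that model. Dusp1 was the gene with the full palindrome TGACGTCA, which holds 2 of its 3 core matches and is present in 1.79% of all regions. Fosb and Klf2 held the Egr site GCGNGGGCG (5.55% of all regions), and none of the 8 held the AP-1 site TGANTCA (7.81%) or the CArG box of serum response factor (1.63%) in this window. The core was added to the search after the sequences had been seen, and a match describes letters in a window, not a bound site.

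The genes lie on 7 chromosomes in GRCm38, by the GENCODE M21 annotation. Fos (ENSMUSG00000021250) is on chromosome 12 from 85473890 to 85477273, Fosb on chromosome 7 from 19302696 to 19310051, Jun on chromosome 4 from 95049034 to 95052222 and Atf3 on chromosome 1 from 191170296 to 191218039. Junb, Jund, Ier2 and Klf2 are all on chromosome 8, Egr1 is on chromosome 18 and Dusp1 on chromosome 17. Each is protein-coding. The gene model of Dusp1 overlaps 2 others on its own strand (AC122252.4 and AC122252.1), so its count is less certain than the rest, and that of Junb overlaps Prdx2 on the opposite strand.

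After filtering, 7574 cells with 70610233 UMIs (median 7494.5 per cell) were kept in the 60TM library and 6086 cells with 57480919 UMIs (median 7212) in the WT library, and 20 barcodes occurred in both. Clusters were named by marker genes, with 73 early response genes, the 10 among them, left out of the clustering, and a name such as astrocytes stands for cells with an astrocyte-like marker profile. Of the classes, 13 held at least 50 cells in each library. In these 13, every marker of the class itself was detected in both libraries, and 579 cells of 60TM (7.64%) and 399 cells of WT (6.56%) stayed unnamed. Gfap, as a check of the labels, stood at 1334 CPM (the gene's UMIs scaled to a class total of 1e+06) in 60TM astrocytes and 394 CPM in WT astrocytes, a ratio of 3.38 (3.24 to 3.53), from reads assigned to the mouse gene.

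Across the 13 classes most of the 10 genes were high in macrophage-type cells and low in choroid plexus cells and committed oligodendrocyte precursors of both libraries. Mature oligodendrocytes were low for most genes too, with Jund as an exception at rank 3 in both libraries (963 CPM in 60TM and 850 CPM in WT) and Jun at rank 10 in 60TM and rank 8 in WT. Fos was highest in border macrophages, the macrophages of meninges and vessels, with 3552 CPM in 60TM and 2886 CPM in WT, and next in microglia, with 1966 CPM in 60TM and 1287 CPM in WT. Its lowest levels were 12.6 CPM in 60TM oligodendrocytes and 0 UMIs in WT choroid plexus cells, which allows up to 3.54 CPM. The largest shift in position was that of astrocytes, at rank 3 for Fos in 60TM with 272 CPM and at rank 9 in WT with 22.6 CPM. In 60TM the Fos intervals of astrocytes and of radial glia-like cells (262 CPM) overlapped, and in WT those of astrocytes and neurons (11.2 CPM) did. Oligodendrocyte precursor cells had the next highest Fos level of WT after the macrophage-type cells, at 275 CPM, against 176 CPM in 60TM.

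Klf2, known for its induction by blood flow in vessels, had its own order. It was highest in endothelial cells, with 2330 CPM in 60TM and 2167 CPM in WT, ahead of microglia and border macrophages, and stood at 31.8 CPM or below in 60TM and 15.3 CPM or below in WT in the other 10 classes. Egr1 and Ier2 were high in immature neurons, next after the macrophage-type cells in both libraries: Egr1 had 667 CPM in 60TM and 530 CPM in WT, and Ier2 454 CPM in 60TM and 408 CPM in WT. Jund varied least between classes of a library, from 103 to 2513 CPM in 60TM and from 109 to 1829 CPM in WT. Atf3 and Fosb were low outside the macrophage-type cells, with at most 20.9 CPM (Atf3, astrocytes) and 22.7 CPM (Fosb, Cajal-Retzius cells) in 60TM, and at most 26.8 CPM (Atf3, endothelial cells) and 41.0 CPM (Fosb, oligodendrocyte precursor cells) in WT. All these levels are counts of 3' ends, which do not scale with gene length, although capture can differ between genes.

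**Figure D1:**
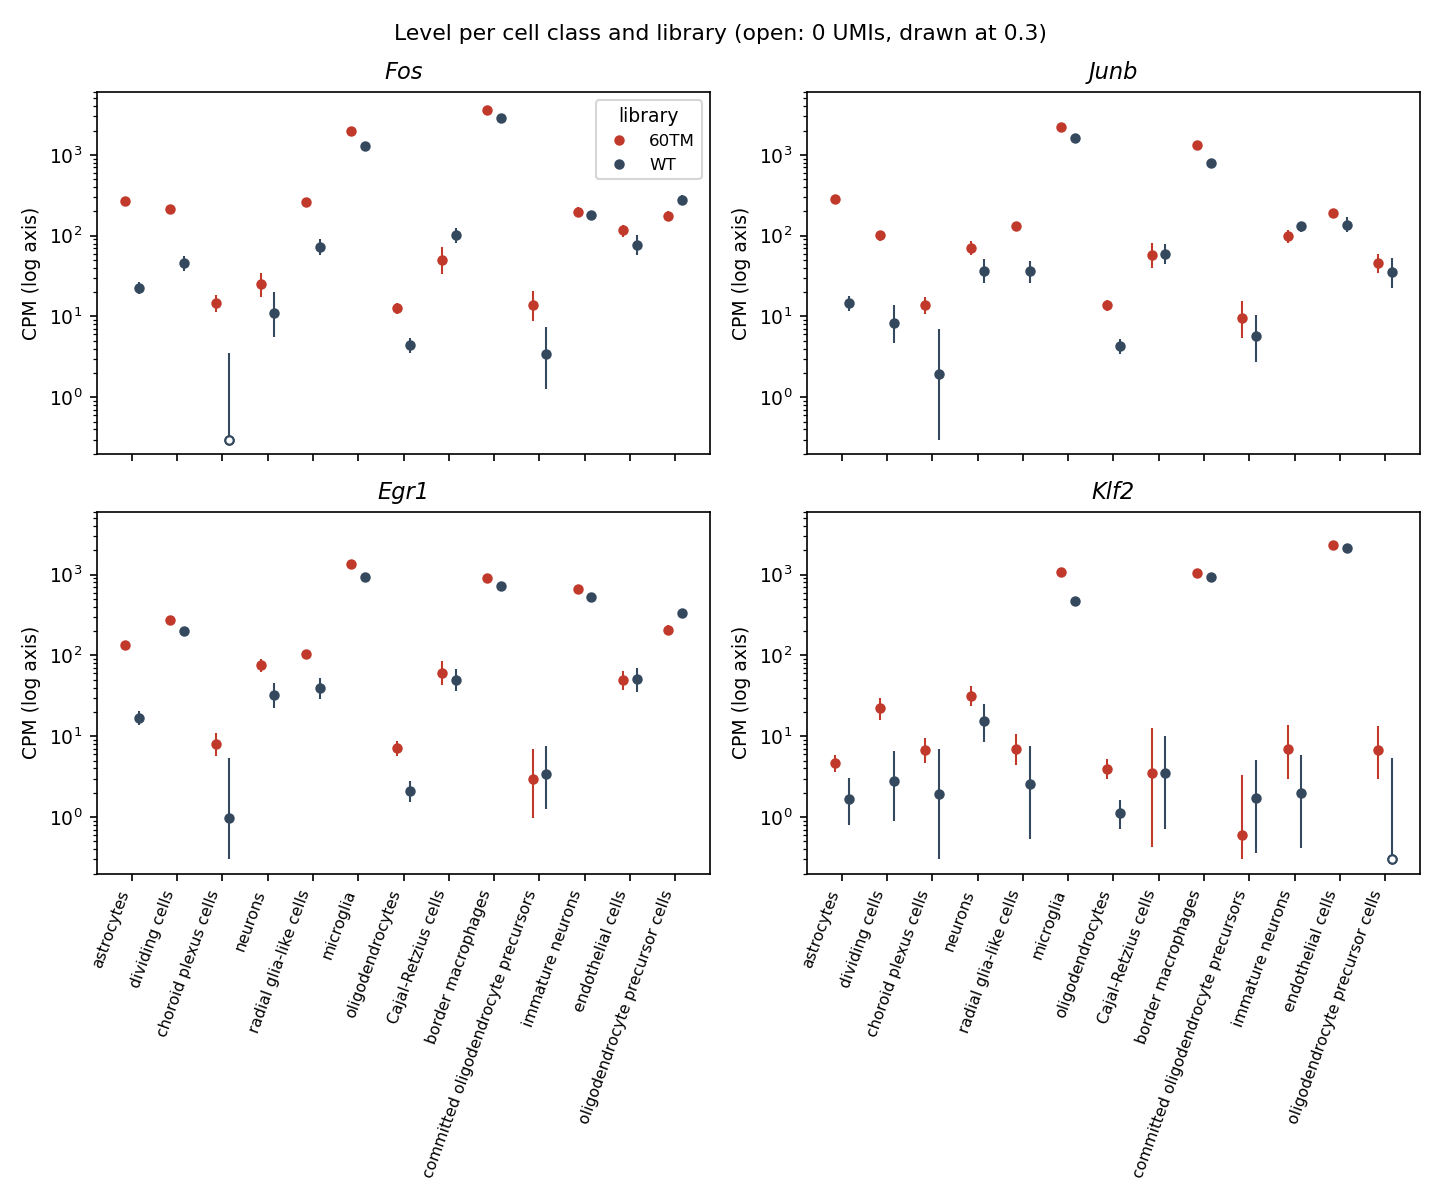
Levels of Fos, Junb, Egr1 and Klf2 (CPM, log axis) in the 13 classes, 60TM left of WT in each, with 95% Poisson intervals as lines (drawn no lower than 0.3) and open points for 0 UMIs. Microglia and border macrophages are highest for Fos, Junb and Egr1 and endothelial cells for Klf2, and in astrocytes Fos stands at 272 CPM in 60TM and 22.6 CPM in WT.

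In astrocytes the genes were higher in the 60TM library, most of all Atf3, Junb and Fos. Fos had 4357 UMIs (272 CPM, 264 to 281) in 60TM and 135 UMIs (22.6 CPM, 18.9 to 26.7) in WT, a ratio of 12.1 (10.2 to 14.4). Junb had 4577 UMIs (286 CPM) in 60TM and 87 UMIs (14.6 CPM) in WT, a ratio of 19.7 (15.9 to 24.6). Fos and Junb were thus level with each other in 60TM astrocytes and an order of magnitude lower in WT. Atf3, induced by stress and injury, rested on few WT molecules, with 335 UMIs in 60TM and 5 UMIs in WT, a ratio of 25.0 (10.6 to 77.6). Egr1 had 134 CPM in 60TM and 16.7 CPM in WT, a ratio of 7.98 (6.53 to 9.86), and Ier2 had 67.8 CPM in 60TM and 10.9 CPM in WT, a ratio of 6.24 (4.85 to 8.14). Jun and Dusp1 differed less: Jun had 339 CPM in 60TM and 136 CPM in WT, a ratio of 2.49 (2.32 to 2.69). Dusp1 had 101 CPM in 60TM and 39.6 CPM in WT, a ratio of 2.54 (2.21 to 2.92). Jund, which many cells make without a stimulus, had 593 CPM in 60TM and 299 CPM in WT, a ratio of 1.98 (1.88 to 2.09), just under 2.

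In astrocytes 8 of the 10 genes reached 100 UMIs over both libraries. Of these, 7 were higher in 60TM by 2-fold or more and 0 lower, where 3.69% of all 10631 genes at that depth were higher and 1.2% lower by as much. The median log2 ratio, on CPM + 5, was 2.15 over the 9 genes with at least 20 UMIs, against -0.03 over 13431 genes. Klf2 and Fosb had under 100 UMIs. Klf2 had 4.62 CPM in 60TM and 1.67 CPM in WT, where the upper estimate of free RNA was 8.51 CPM in 60TM and 2.08 CPM in WT. That estimate for Fos was 14.6 CPM in 60TM and 4.41 CPM in WT, far under its 60TM level.

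A larger share of 60TM than of WT astrocytes carried most of the genes, and carriers of Fos had more copies. The thinned shares of Klf2 (0.767% in 60TM and 0.340% in WT) and Fosb (0.164% in 60TM and 0% in WT) had overlapping intervals. With every cell thinned to 2000 UMIs, 25.0% of 60TM astrocytes (23.0 to 27.0) and 3.62% of WT astrocytes (2.49 to 5.08) had a Fos UMI, and those cells averaged 2.09 Fos UMIs in 60TM and 1.25 in WT. Thinning left out 191 astrocytes of 60TM and 70 of WT that were shallower, and 19 microglia of 60TM and 23 of WT. Junb was seen in 24.9% of thinned 60TM astrocytes and 2.15% of WT astrocytes, and Egr1 in 16.9% of 60TM and 2.83% of WT astrocytes. Without thinning, 44.3% of 60TM and 7.87% of WT astrocytes had a Fos UMI. The share of thinned astrocytes with none of the 10 genes was 18.5% in 60TM and 39.6% in WT, and the share with 5 or more was 8.27% in 60TM and 0.113% in WT. In thinned oligodendrocytes, the class with the lowest Fos level of 60TM, 2.39% in 60TM and 0.648% in WT had a Fos UMI. Before thinning, median depths were 7158 UMIs in 60TM and 5968 in WT astrocytes, and 15540 in 60TM and 14520 in WT oligodendrocytes.

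**Figure D2:**
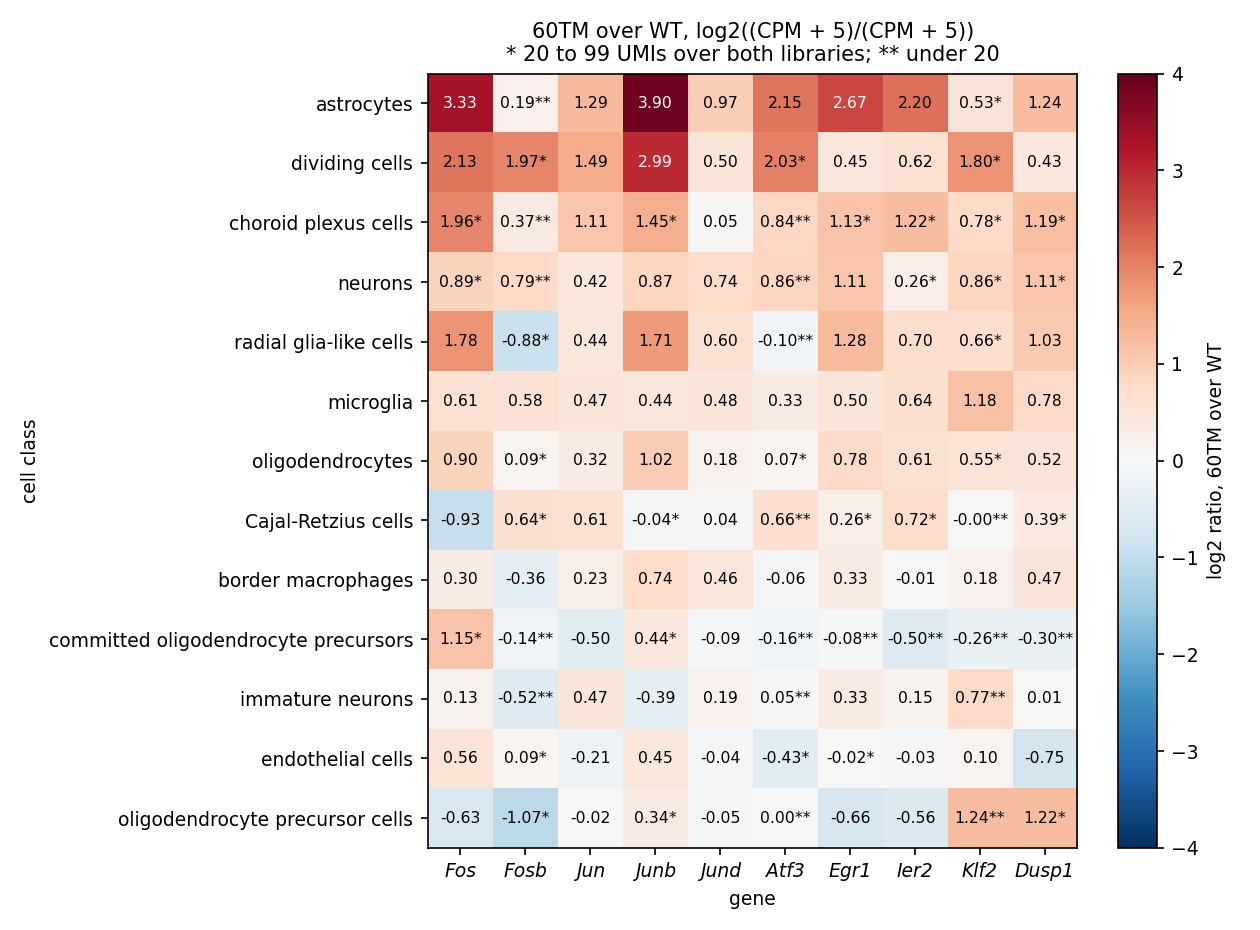
Log2 ratio of 60TM over WT, taken on CPM + 5, for each gene (columns) in each class (rows), with asterisks where few UMIs stand behind a value, red for higher and blue for lower in 60TM. The pseudocount lowers the values of rare genes, so Atf3 in astrocytes shows 2.15; Junb reaches 3.90 there, and Fos, Egr1 and Ier2 are below 0 in oligodendrocyte precursor cells.

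The 2 genotypes filled the astrocyte class from different clusters. A cluster led by Lcn2, Cxcl10 and C3 held 1026 of the 60TM astrocytes (50.9%) and 54 of the WT astrocytes (5.67%), and a cluster led by Agt and Slc6a11 held 693 in 60TM (34.4%) and 584 in WT (61.3%). The Lcn2 cluster carried 79.3% of the 60TM astrocyte UMIs of Fos, 91.1% of those of Junb and 95.8% of those of Atf3. Its 60TM cells were deeper, with a median of 8656 UMIs against 7158 over all 60TM astrocytes. Its share of all 60TM astrocyte UMIs was thus larger than its share of cells. Its Fos level was 346 CPM in its 60TM cells and 73.1 CPM in its WT cells (26 UMIs), a ratio of 4.73 (3.22 to 7.25). In the Agt cluster Fos had 136 CPM in 60TM and 13.9 CPM in WT, a ratio of 9.79 (7.38 to 13.2), and Egr1 had 83.6 CPM in 60TM and 13.3 CPM in WT, a ratio of 6.27 (4.67 to 8.58). Jund there had a ratio of 1.14 (1.06 to 1.23). A cluster led by Lcat and Aqp4, with 70 cells of 60TM and 265 of WT, had Fos at 237 CPM in 60TM and 30.3 CPM in WT, a ratio of 7.83 (5.68 to 10.9). In the remaining cluster, a shallow one led by Aldh1a1 and Gfap, Fos had 90 UMIs in 60TM and 3 in WT, a ratio of 5.76 (1.91 to 28.5). Fos, Junb and Egr1 were thus higher in 60TM in all 4 clusters with an interval above 1 each time, Egr1 in the shallow cluster from 34 UMIs in 60TM and 0 in WT.

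**Figure D3:**
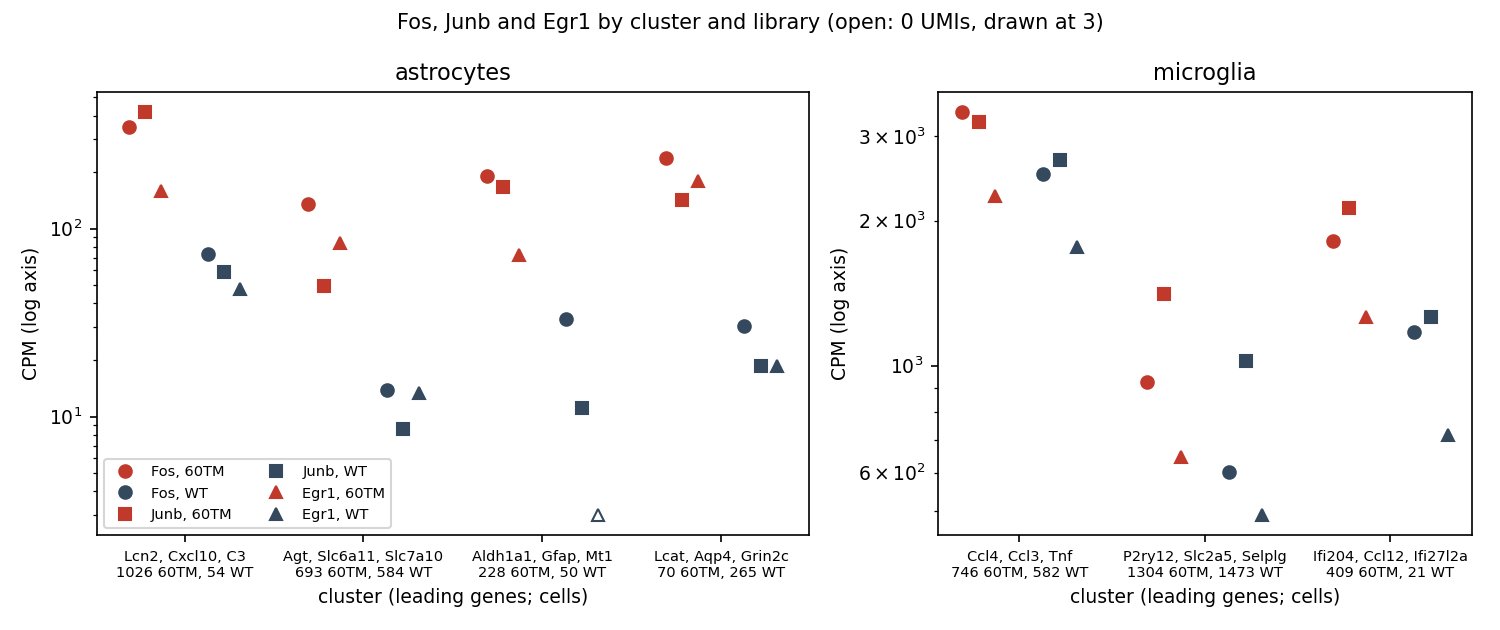
Levels (CPM, log axes) of Fos, Junb and Egr1 in the 4 astrocyte and the 3 microglial clusters, named by leading genes with their cells below, 60TM left of WT. Each gene is higher in 60TM in every cluster shown, and the open triangle stands for 0 UMIs of Egr1.

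The Lcn2 cluster and a microglial cluster came at least 95% from 1 library. Leaving them out left 4 genes called at least 2-fold higher in astrocytes and a median of 1.12. Fosb, Klf2 and Atf3 had under 100 UMIs in this setting and could not be called. The share of all genes past 2-fold was not computed for it. Without these clusters Junb had a ratio of 5.80, Fos 7.75, Egr1 6.25 and Ier2 4.06, while Jun had 1.53, Dusp1 1.63 and Jund 1.31. Atf3 then had a ratio of 3.28 and under 100 UMIs. Microglial markers summed to 147 CPM over 9 genes in 60TM astrocytes and 127 CPM in WT astrocytes, with all 9 detected. Cells with 3 or more of them were 3.97% of 60TM and 1.78% of WT astrocytes. Over all other settings, leaving out such cells among them, the astrocyte ratio was 7.75 to 15.4 for Fos and 5.80 to 28.9 for Junb. Choroid plexus markers summed to 470 CPM in 60TM and 31.8 CPM in WT, with 2 of 8 (Kl and Kcne2) at 0 in WT. Their part in the result was not tested.

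In microglia all 10 genes were higher in 60TM, but with smaller ratios than in astrocytes, from 1.27 for Atf3 to 2.28 for Klf2. This order holds for ratios only, since the starting levels of the 2 classes were far apart. WT astrocytes held Fos at 22.6 CPM, against 1287 CPM for WT microglia. Counted in CPM, each of the 10 genes differed more between the libraries in microglia than in astrocytes. Klf2 had 19791 UMIs (1065 CPM) in 60TM and 6182 UMIs (467 CPM) in WT, a ratio of 2.28 (2.22 to 2.35). It was the gene of the 10 that passed 2-fold, where 0.921% of 10204 genes were that much higher and 0.314% lower. Dusp1 had 637 CPM in 60TM and 369 CPM in WT, a ratio of 1.73 (1.67 to 1.78). Among the AP-1 subunits Fos had 1966 CPM in 60TM and 1287 CPM in WT, a ratio of 1.53 (1.50 to 1.56), and Jun, the most abundant of the 10 here, had 3936 CPM in 60TM and 2840 CPM in WT, a ratio of 1.39 (1.37 to 1.40). The remaining genes lay at 1.56 for Ier2, 1.52 for Fosb, 1.41 for Egr1, 1.39 for Jund and 1.36 for Junb, and the median log2 ratio was 0.54 against -0.03 over all genes. The intervals are narrow because the sums are deep. They hold nothing of the spread between cells or between mice.

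Per cell, microglia ranged from none of the genes to all 10 in both libraries. Thinned to 2000 UMIs, 57.3% of 60TM and 39.6% of WT microglia had 5 or more of the 10 genes, with a median of 6 in 60TM and 3 in WT, while 8.24% of 60TM and 11.0% of WT microglia had none. Thinned Klf2 was seen in 38.8% of 60TM and 19.2% of WT microglia, and Fos in 54.1% of 60TM and 36.9% of WT microglia. Among cells with a Fos UMI the mean was 6.65 in 60TM and 5.81 in WT, so the libraries differed more in how many microglia carried Fos than in copies per carrying cell. Atf3 was seen in 20.2% of 60TM and 13.9% of WT microglia.

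**Figure D4:**
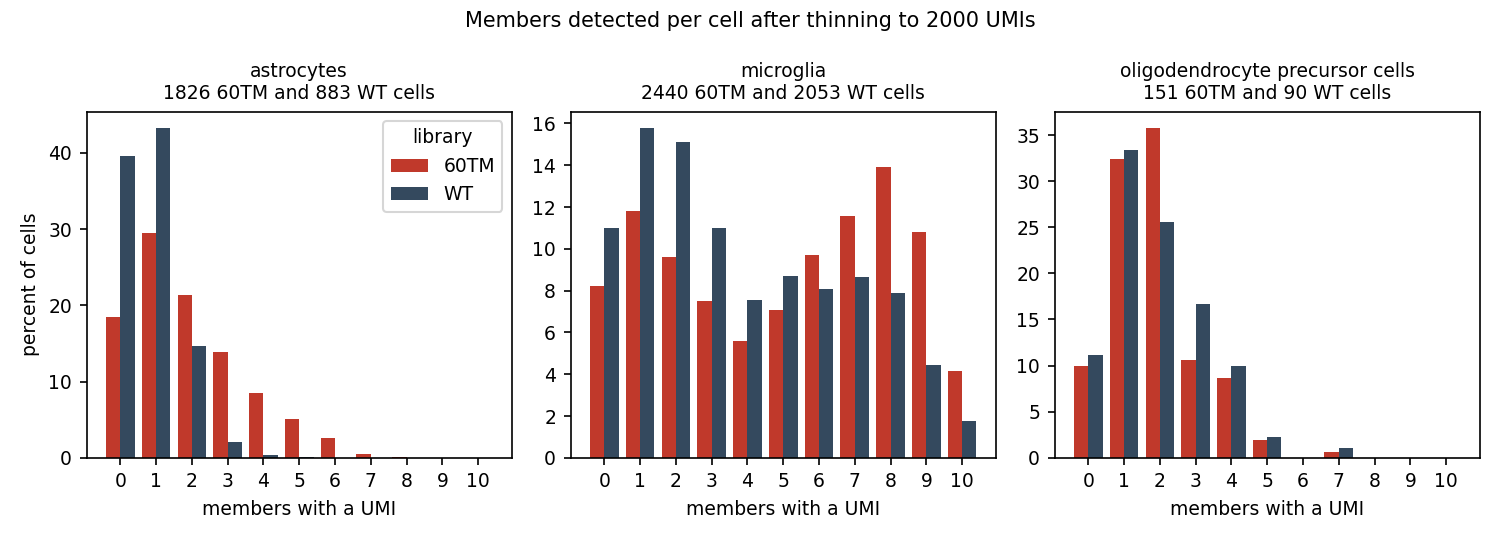
Share of cells (percent) by the number of the 10 genes with a UMI after thinning to 2000 UMIs, for astrocytes, microglia and oligodendrocyte precursor cells, 60TM left of WT. In microglia 60TM has peaks at 1 gene (11.8% of cells) and at 8 genes (13.9%) with 5.57% at 4 between them, whereas WT peaks at 1 gene (15.8%) and lies between 7.55% and 8.72% from 4 to 8 genes, while WT astrocytes stay at few genes.

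A microglial cluster led by Ccl4, Ccl3 and Tnf had the highest Fos level of the 3. The 10 genes were left out of the clustering, but Ccl3, Ccl4 and Tnf were not. Atf3, Fosb, Fos and Egr1 were also among the 10 leading genes of this cluster, so its high Fos level is not an independent result. The cluster took 30.3% of 60TM and 28.0% of WT microglia and 61.2% of the 60TM and 69.5% of the WT microglial UMIs of Fos. Its median depth was 8103 UMIs in 60TM and 7482.5 in WT, against 6885 in 60TM and 5649 in WT over all microglia. Its share of all microglial UMIs was thus larger than its share of cells. Fos there had 3360 CPM in 60TM and 2504 CPM in WT, a ratio of 1.34 (1.31 to 1.37). The larger cluster led by P2ry12, a gene of surveying microglia, had Fos at 926 CPM in 60TM and 600 CPM in WT, a ratio of 1.54 (1.49 to 1.60), and Klf2 at 425 CPM in 60TM and 178 CPM in WT, a ratio of 2.38 (2.24 to 2.53). Another cluster, led by the interferon-induced gene Ifi204, held 409 cells of 60TM and 21 of WT, with Fos at 1812 CPM in 60TM and 1176 CPM in WT. All 10 genes had a ratio above 1 in all 3 clusters, and the interval included 1 for Atf3 in the Ifi204 cluster, at 1.34 (0.922 to 2.03).

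Border macrophages, the highest class of both libraries for Fos, Fosb, Jund, Atf3 and Dusp1, differed less: 0 of the 10 genes passed 2-fold in either direction, where 1.86% of 1992 genes were 2-fold higher and 0.502% lower. Junb had 1319 CPM in 60TM and 789 CPM in WT, a ratio of 1.67 (1.48 to 1.89). Fosb had 340 CPM in 60TM and 436 CPM in WT, a ratio of 0.779 (0.646 to 0.940). Ier2, at 737 CPM in 60TM and 741 CPM in WT, and Atf3, at 343 CPM in 60TM and 358 CPM in WT, had intervals that included 1.

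Oligodendrocytes had few UMIs of the genes that differed. Fos had 171 UMIs (12.6 CPM) in 60TM and 99 UMIs (4.39 CPM) in WT, a ratio of 2.86 (2.22 to 3.70). Junb had 13.7 CPM in 60TM and 4.26 CPM in WT, a ratio of 3.23 (2.51 to 4.17), Egr1 7.12 CPM in 60TM and 2.08 CPM in WT, a ratio of 3.42 (2.39 to 4.95), and Ier2 6.61 CPM in 60TM and 2.62 CPM in WT, a ratio of 2.53 (1.80 to 3.57). These 4 of the 7 genes with enough UMIs passed 2-fold, where 0.858% of 9902 genes were that much higher and 0.222% lower, and the median log2 ratio was 0.54. The upper estimate of free RNA for Fos was 8.74 CPM in 60TM and 3.92 CPM in WT, and for Junb 9.14 CPM in 60TM and 4.51 CPM in WT. These estimates were about as large as the WT levels themselves, and for Junb larger. Thinned to 2000 UMIs, the ratios were 2.70 for Fos, 3.14 for Junb, 2.31 for Egr1 and 1.39 for Ier2, and 0 were called, each of the 4 having under 100 UMIs after thinning. With no doublets removed, Junb had 1.57, Egr1 1.64 and Ier2 1.37. Past 2-fold were 2 genes once cells with 3 or more microglial markers (7.00% of 60TM and 3.79% of WT cells) were left out. The abundant genes were closer to equal: Jund had 963 CPM in 60TM and 850 CPM in WT, a ratio of 1.13 (1.11 to 1.16), and Jun 236 CPM in 60TM and 188 CPM in WT, a ratio of 1.26 (1.20 to 1.32).

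Oligodendrocyte precursor cells went the other way for several genes. Fos had 207 UMIs (176 CPM) in 60TM and 188 UMIs (275 CPM) in WT, a ratio of 0.638 (0.521 to 0.782). Egr1 had 246 UMIs (209 CPM) in 60TM and 227 UMIs (333 CPM) in WT, a ratio of 0.628 (0.522 to 0.755), and Ier2 had 50.9 CPM in 60TM and 77.6 CPM in WT, a ratio of 0.656 (0.446 to 0.968). All 5 genes with at least 100 UMIs had a ratio below 1, although Jun (0.989) and Jund (0.963) had intervals that included it. None reached 2-fold in either direction, where 0.244% of 4104 genes were 2-fold higher and 0.0487% lower, and the median log2 ratio was -0.31 over 8 genes. The share of thinned cells with a Fos UMI was near equal, 17.2% in 60TM (11.6 to 24.2) and 18.9% in WT (11.4 to 28.5), and cells with one averaged 1.85 Fos UMIs in 60TM and 2.71 in WT. These averages rest on 26 of 151 thinned cells in 60TM and 17 of 90 in WT. The intervals of the ratios hold nothing of the spread between cells. Dusp1 stood apart with 44 UMIs in 60TM and 9 in WT, a ratio of 2.83 (1.36 to 6.60).

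Endothelial cells had 0 of 7 genes past 2-fold (1.19% of 3360 genes were 2-fold higher and 0.298% lower) and a median log2 ratio of -0.03. Klf2 had 2768 UMIs (2330 CPM) in 60TM and 1456 UMIs (2167 CPM) in WT, a ratio of 1.08 (1.01 to 1.15), and was in 92.4% of thinned 60TM and 89.2% of thinned WT cells. Fos had 116 CPM in 60TM and 77.4 CPM in WT, a ratio of 1.50 (1.08 to 2.11). Dusp1 was lower, at 235 CPM in 60TM and 397 CPM in WT, a ratio of 0.591 (0.498 to 0.702). Jun, Jund and Ier2 had intervals that included 1, at 0.865, 0.972 and 0.977.

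Set against each other, the ratio of astrocytes exceeded that of microglia for 8 of the 10 genes, counting those whose ratio of ratios had an interval above 1. Fos was 7.89-fold (6.64 to 9.38) more different in astrocytes than in microglia, Junb 14.5-fold (11.7 to 17.9) and Dusp1 1.47-fold (1.28 to 1.69), while Klf2 and Fosb had intervals that included 1. The astrocyte ratio also exceeded that of oligodendrocytes for 8 of 10, of endothelial cells for 9 of 10 and of oligodendrocyte precursor cells for 7 of the 8 genes that could be compared, and none was smaller. Microglia exceeded oligodendrocyte precursor cells for 6 of 8 and endothelial cells for 5 of 10, and oligodendrocytes exceeded them for 7 of 8 and 8 of 10. Between microglia and oligodendrocytes, 2 genes had the larger ratio in microglia and 4 in oligodendrocytes. The 4 were Fos, Junb, Egr1 and Ier2, whose WT oligodendrocyte levels were about as large as the upper estimates of free RNA. Under other settings their oligodendrocyte ratios ran from 2.30 to 8.05, 1.57 to 35.0, 1.64 to 10.2 and 1.29 to 3.47. The intervals of all these comparisons too cover counting error only, and the classes of a library share its handling. The comparisons use whole classes, the Lcn2 cluster among them. Without clusters of 1 library, the astrocyte ratio was 1.63 for Dusp1 and 1.31 for Jund. Both fell below microglia, whose ratios were at least 1.69 and 1.34 under all settings. Jun kept a small lead, 1.53 against at most 1.44 for microglia. Fos, Junb, Egr1 and Ier2 stayed larger in astrocytes, with ratios of 4.06 or more.

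Neural progenitor classes were higher in 60TM as well. In radial glia-like cells, stem cells of the dentate gyrus that share genes with astrocytes, Fos had 262 CPM in 60TM and 72.7 CPM in WT, a ratio of 3.61 (2.88 to 4.58), and Junb 130 CPM in 60TM and 36.3 CPM in WT, a ratio of 3.58 (2.61 to 5.05). With Egr1 (2.61) and Dusp1 (2.17) these made 4 of 7 genes past 2-fold, where 1.13% of 6128 genes were that much higher and 0.408% lower. Dividing cells had 3 of 7 (2.01% of 5919 genes were 2-fold higher and 0.439% lower), namely Junb with 101 CPM in 60TM and 8.34 CPM in WT, Fos with 217 CPM in 60TM and 45.6 CPM in WT, and Jun with 444 CPM in 60TM and 155 CPM in WT. The 9 microglial markers summed to 2031 CPM in the dividing cells of 60TM and 71.7 CPM in those of WT. Leaving out cells with 3 or more of them (14.0% in 60TM and 2.22% in WT) left 1 gene past 2-fold with at least 100 UMIs, and ratios of 3.16 for Fos, 1.66 for Jun and 3.21 for Junb.

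The remaining classes gave few calls. In immature neurons 0 of 7 genes passed 2-fold (0.131% of 4566 genes were 2-fold higher and 0.0219% lower). Egr1, an activity-regulated gene in neurons, had 667 CPM in 60TM and 530 CPM in WT, a ratio of 1.26 (1.14 to 1.39), whereas Junb had 98.4 CPM in 60TM and 130 CPM in WT, a ratio of 0.756 (0.595 to 0.957). In other neurons Egr1 passed 2-fold with 75.8 CPM in 60TM and 32.6 CPM in WT, a ratio of 2.33 (1.56 to 3.57), 1 of 4 genes where 0.927% of 5071 were that much higher and 0.986% lower. That ratio was 1.01 with the filters on cells set to 200 genes and 5% mitochondrial UMIs, and 1.60 as a mean over cells. Cajal-Retzius cells, early-born neurons of the outer layers, had Fos 2-fold lower with 50.7 CPM in 60TM and 101 CPM in WT, from 29 UMIs in 60TM and 87 in WT, a ratio of 0.500 (0.317 to 0.769), 1 of 3 genes where 0.144% of 2782 were that much lower and 0.252% higher. With no doublets removed this ratio was 1.12, in the other direction, and as a mean over cells 0.833. Committed oligodendrocyte precursors had 0 of 2 (0.191% of 5231 genes were 2-fold higher and 0.0574% lower). In choroid plexus cells Jun had 24.5 CPM in 60TM and 8.64 CPM in WT, a ratio of 2.83 (1.44 to 6.34), 1 of 2 genes where 1.87% of 4965 were that much higher and 0.624% lower, but 0.635 without the cells that had microglial markers. Over all kept cells together the 10 genes had ratios from 1.25 for Jund to 2.37 for Klf2, which passed 2-fold as 3.27% of 15352 genes did, while 3.51% were that much lower.

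Other genes of the same response gave the members context. In astrocytes 15 of 23 other early response genes passed 2-fold upwards and 0 downwards, with a median log2 ratio of 1.21. Ccn2, a matricellular protein gene induced with serum, had 365 UMIs (22.8 CPM) in 60TM and 2 UMIs (0.334 CPM) in WT, a ratio of 68.2 (18.7 to 565), and Ier3 had 141 CPM in 60TM and 4.52 CPM in WT, a ratio of 31.1 (21.3 to 47.3). At the other end Plk2, a polo-like kinase gene, had 8.75 CPM in 60TM and 9.37 CPM in WT, a ratio of 0.934 with an interval that included 1, and Btg1, an antiproliferative gene, had 175 CPM in 60TM and 182 CPM in WT. Among other AP-1 and small Maf genes 4 of 8 were higher: Maff had 246 UMIs in 60TM and 3 in WT, a ratio of 30.6 (10.4 to 150), and Fosl1, a Fos relative, had 107 UMIs in 60TM and 0 in WT, at least 13.3-fold higher when 3 UMIs are taken for WT. Atf2 and Atf7, which cells keep ready and activate by phosphorylation, lay below 1 at 0.822 and 0.727.

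The upstream kinases and factors, which act through modification rather than new transcription, had 0 of 15 past 2-fold in astrocytes and a median of -0.02, from 0.681 for Rps6ka3 to 1.41 for Elk3. Feedback genes of the MAP kinase pathway were split, with 2 of 8 higher: Dusp8 had 43.2 CPM in 60TM and 9.37 CPM in WT, a ratio of 4.62 (3.51 to 6.18), and Spry2 had 266 CPM in 60TM and 391 CPM in WT, a ratio of 0.680 (0.647 to 0.716). All 3 genes of a list of handling-related and NF-kB genes with enough UMIs were higher, with Nfkbia, an inhibitor of NF-kB, at 443 CPM in 60TM and 106 CPM in WT, a ratio of 4.17 (3.84 to 4.53). The other lists had 1 of 5 (Egr, Klf and Nab genes) and 2 of 3 (Nr4a and neuronal activity genes) higher. Reference genes had 0 of 10 past 2-fold and a median of -0.05.

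Heat shock genes, another group known to be induced in dissociated cells, had 3 of 11 at least 2-fold higher in astrocytes with a median of 0.38, and the highest was Hspb1 with 398 UMIs in 60TM and 4 in WT. Their median was 0.35 in microglia with 0 of 11 past 2-fold, 0.31 in oligodendrocytes with 2 of 11, 0.16 in oligodendrocyte precursor cells with 0 of 7 and 0.05 in endothelial cells with 0 of 8. The medians of the 10 genes over the same classes ran 2.15, 0.54, 0.54, -0.31 and -0.03. Heat shock medians thus ran from 0.05 in endothelial cells to 0.38 in astrocytes. Those of the 10 genes ran more widely, from -0.31 in oligodendrocyte precursor cells to 2.15 in astrocytes. Both lists had lower medians in oligodendrocyte precursor cells and endothelial cells than in astrocytes, microglia and oligodendrocytes.

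In microglia 16 of 18 other early response genes had a ratio above 1 and 2 below. Of the 18, 1 passed 2-fold, Socs3, a feedback inhibitor of cytokine signalling, with 602 CPM in 60TM and 272 CPM in WT, a ratio of 2.21 (2.13 to 2.30), and the median was 0.21. Klf4 had 208 CPM in 60TM and 98.5 CPM in WT, a ratio of 2.11 (1.98 to 2.25). The list of handling-related and NF-kB genes was split, with 7 of 10 above 1 and 3 below. Nfkbiz was highest with 120 CPM in 60TM and 67.3 CPM in WT, a ratio of 1.79 (1.65 to 1.93), and Nfkbia had 601 CPM in 60TM and 386 CPM in WT, a ratio of 1.55 (1.50 to 1.61). The chemokine genes Ccl3 and Ccl4, known to be induced in handled microglia, were lowest, Ccl3 with 135 CPM in 60TM and 213 CPM in WT, a ratio of 0.631 (0.597 to 0.666), and Ccl4 with 273 CPM in 60TM and 378 CPM in WT, a ratio of 0.724 (0.696 to 0.753). The list had 0 of 10 past 2-fold in either direction and a median of 0.20.

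**Figure D5:**
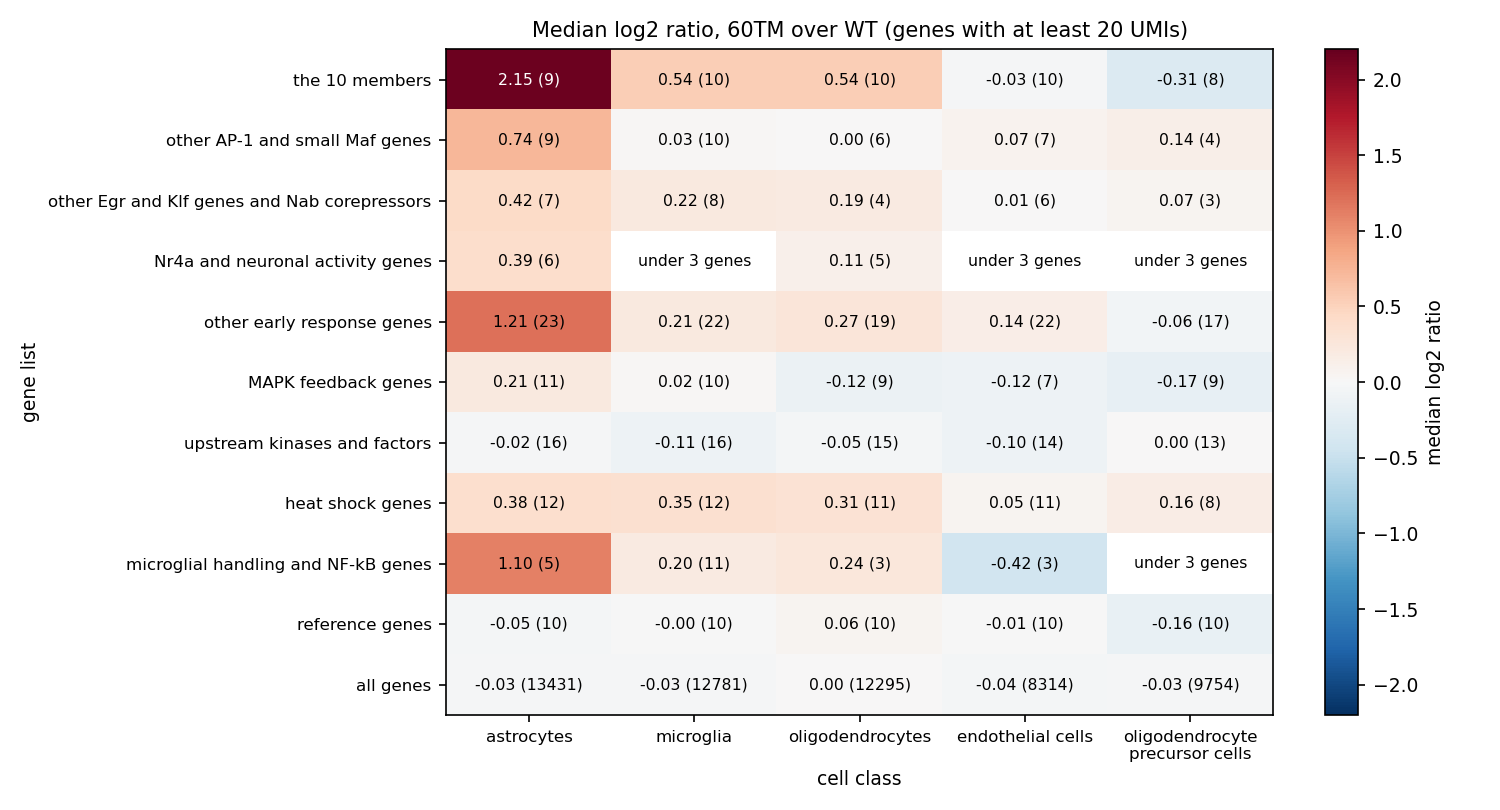
Median log2 ratio of 60TM over WT for the 10 genes, 9 other lists and all genes in the 5 main classes, with the number of genes in brackets. The 10 genes stand at 2.15 in astrocytes and -0.31 in oligodendrocyte precursor cells, while upstream kinases and reference genes lie between -0.16 and 0.06 in these classes.

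The genes whose ratio varied across the 13 classes most like the median of the 10 were Capns1, a calpain subunit, with a Pearson correlation of 0.85, then Ubac2, Ly6e, Tmem192 and Ski, among 4776 genes with at least 20 UMIs in every class. The 13 points share 2 libraries and differ in depth, so the correlation is a description. Capns1 had a log2 ratio of 0.72 in astrocytes and 0.02 in microglia.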

How the data were processed

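Single-cell RNA-seq of hippocampus gave 1 library of 60TM and 1 of WT mice, at 54044 and 63967 reads per cell per the labels. The authors deposited raw UMI counts per gene and barcode, made with Cell Ranger 5.0.0 per the file headers and aligned to GRCm38 per the submitters' processing notes. Annotation release and intron counting are not given in the sources used here.

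Barcodes with under 500 genes or over 15% mitochondrial UMIs were removed, then those with the highest Scrublet scores, as a share set by library size (610 in 60TM and 377 in WT). Both libraries were clustered together (scanpy 1.11.5, 2000 variable genes, 30 components, 15 neighbours, Leiden resolution 1) without integration, and clusters were named when at least 3 markers of a class had a log2 ratio of 1 or more in at least 20% of cells. Clusters with a close rival class or a median depth far under their library's stayed unnamed. UMIs were summed per class and library. Ratios have exact conditional-binomial intervals, levels Poisson intervals and shares Clopper-Pearson intervals (95%, scipy 1.17.1). A gene was called at a ratio of 2 or more, or 0.5 or less, with at least 100 UMIs over both libraries. A group at 0 was set to a floor of 3 UMIs for a fold. Free RNA was estimated per class and library from the defining markers of other classes, as an upper limit. On simulated counts with known folds, the call was tested before use.

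With 1 library per genotype no test was made. The 10 genes, the gene lists, the markers and the naming rule were chosen with earlier results of these data known. Beside the 10 genes, the text may name up to 4 genes of each list per main class (5 classes), those with the highest and lowest ratios, and the 5 genes whose log2 ratio followed the median of the 10 most closely over classes. Where cells with microglial markers were left out, that alternative was chosen after seeing the data.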

Additional observations from a re-analysis of the deposited data

Results flagged for a closer look

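Several genes had an interval below 1 in some class although the same gene had an interval above 1 in others. The difference between these classes was not tested over samples, since each genotype has 1 library. The intervals hold counting error only, and nothing of the spread between cells.

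In oligodendrocyte precursor cells Fos had a ratio of 0.638 (0.521 to 0.782), Egr1 of 0.628 (0.522 to 0.755) and Ier2 of 0.656 (0.446 to 0.968), while the intervals of Fos lay above 1 in 10 other classes, those of Egr1 in 9 and those of Ier2 in 7. Fosb had a ratio of 0.414 (0.221 to 0.762) in the same cells, from 20 UMIs in 60TM and 28 in WT. Fosb was also lower in border macrophages, at 0.779 (0.646 to 0.940), and in radial glia-like cells, at 0.301 (0.110 to 0.799), from 9 UMIs in 60TM and 11 in WT, against an interval above 1 in 2 classes.

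Fos had a ratio of 0.500 (0.317 to 0.769) in Cajal-Retzius cells, but 1.12 with no doublets removed. After thinning, 3 of 59 cells in 60TM and 6 of 94 in WT had a Fos UMI there. Jun had 0.686 (0.507 to 0.925) in committed oligodendrocyte precursors, from 76 UMIs in 60TM and 115 in WT, although it was above 1 in 10 other classes. Junb had 0.756 (0.595 to 0.957) in immature neurons and lay above 1 in 9 others. Dusp1 had 0.591 (0.498 to 0.702) in endothelial cells and lay above 1 in 8 others.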

How the results depend on the processing

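Over the 22 ratios of the 10 genes that passed 2-fold, 220 values were computed under other settings, of which 218 kept the direction and 202 stayed past 2-fold. This count sets no minimum of UMIs under the other settings, so it includes values with under 100 UMIs. All settings reuse the same 2 libraries and are no replication. The ratio of Jun in choroid plexus cells turned to 0.635 without cells that had microglial markers, and that of Fos in Cajal-Retzius cells to 1.12 with no doublets removed. Shares of all genes called were not computed under the other settings. In astrocytes, leaving out clusters with at least 95% of cells from 1 library gave 4 genes called higher and a median of 1.12. With the early response genes kept in the clustering, a cluster led by Lcn2 (958 cells of 60TM and 62 of WT) stayed unnamed. The astrocytes of that setting thus lack these cells. The microglial median was 0.46 with each cell classed by its highest marker score and 0.63 thinned to 2000 UMIs. In oligodendrocytes 2 genes were called with the filters on cells set to 200 genes and 5% mitochondrial UMIs, 2 with no doublets removed, 2 without cells with microglial markers and 0 after thinning, where Fos (2.70), Junb (3.14) and Egr1 (2.31) stayed past 2-fold but under 100 UMIs, and the median was 0.30 as a mean over cells, 0.85 with a pseudocount of 1 CPM and 0.26 without cells with microglial markers. In oligodendrocyte precursor cells 1 gene was called lower under the highest marker score, and 1 higher and 1 lower with a minimum of 20 UMIs. In endothelial cells 1 was called lower with no doublets removed. Beyond what each alternative changes by construction, the cause was not tested. No paired analysis was possible because each genotype has 1 library, and for the same reason no replicate could be left out. Depth limits Fosb, Atf3 and Klf2 most: they reached 100 UMIs in 2, 3 and 3 of the 13 classes.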

Other observations

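Ependymal cells, which line the ventricles, were too few in 60TM to compare (42 cells, and 131 in WT). They held Atf3 at 36.6 CPM in 60TM (23 UMIs) and 45.0 CPM in WT (104 UMIs), above the level of astrocytes of either library, while Fos stood at 19.1 CPM in 60TM and 12.5 CPM in WT and Junb at 9.56 CPM in 60TM and 4.76 CPM in WT. Jund had 923 CPM in 60TM and 747 CPM in WT.

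An unnamed cluster led by Rgs5, Vtn and Higd1b, genes of the pericyte marker list, also had endothelial genes (Ptprb, Flt1 and Cldn5) among its leading 10 and stayed unnamed for that rivalry. It had Klf2 at 1577 CPM in 60TM (118 cells) and 1566 CPM in WT (36 cells), lower than in endothelial cells and higher than in microglia. Dusp1 there had 166 CPM in 60TM and 257 CPM in WT. In an unnamed cluster led by Dlx6os1, Dlx1 and Sp9, genes of the marker list of interneuron-lineage neuroblasts, Egr1 had 837 CPM in 60TM (333 UMIs) and 460 CPM in WT (115 UMIs), while Fos had 209 CPM in 60TM and 212 CPM in WT. A shallow unnamed cluster with astrocyte markers, led by Gm47423, had Junb at 467 CPM in 60TM (102 UMIs) and 27.7 CPM in WT (6 UMIs). Its median mitochondrial share was 5.68% in 60TM and 2.01% in WT, whose part in this difference was not tested. Not every such cluster was higher in 60TM. An unnamed cluster led by Vtn, Col1a2 and Kcnj8 had 9 Fos UMIs in 60TM and 79 in WT, a ratio of 0.227 (0.100 to 0.453). Ier2 (0.398), Dusp1 (0.448) and Junb (0.670) also had intervals below 1 there, while Egr1 (1.65) and Jund (1.34) had intervals above 1. A shallow unnamed cluster with microglial markers had ratios of 1.01 for Junb and 2.07 (1.13 to 4.08) for Fos.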
